A study of Mus musculus with 12 samples.

Results

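Immediate early response genes are the genes that a cell switches on within minutes of a stimulus such as serum, a hormone or a rise in cAMP, before any new protein is needed. The 38 genes described here were taken from a fixed list of such genes and matched by symbol, out of 35523 mouse genes with transcripts in the files, and all 38 were among the 14042 genes that passed the count filter of the fit across all groups. They were sorted by role into the AP-1 subunits and their bZIP relatives (Fos, Fosb, Fosl1, Fosl2, Jun, Junb, Jund, Atf3, Maff), zinc finger factors (Egr1, Egr2, Egr3, Klf2, Klf4, Klf6, Klf10), the orphan nuclear receptors Nr4a1, Nr4a2 and Nr4a3 with Myc, the small Ier proteins (Ier2, Ier3, Ier5), proteins of mRNA decay and growth arrest (Zfp36, Zfp36l1, Zfp36l2, Btg1, Btg2, Gadd45a, Gadd45b, Gadd45g), feedback inhibitors of kinases (Dusp1, Dusp5, Dusp6, Errfi1) and hormone and clock responders (Sgk1, Rhob, Per1).

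The cells were stromal vascular fraction (SVF) cells, the non-adipocyte cells of a fat depot, from the epididymal fat of 12-week-old male Lepob/Lepob mice, which make no functional leptin and are obese. All groups came from these mice, so no lean group was compared. In every group the cells received an adipogenic cocktail of 3-isobutyl-1-methylxanthine, dexamethasone and insulin and then insulin alone, with 1 µM rosiglitazone (Rosi, a ligand of the nuclear receptor PPARγ) or DMSO (Veh) throughout. At day 4 all cells were given fresh medium for 1 h and cycloheximide at 100 µg/mL for the last 5 min, so every library was made soon after a change of medium. The 4 groups were polysome Rosi, polysome Veh, input Rosi and input Veh. Polysome is poly(A) RNA from the sucrose gradient fractions with several ribosomes per mRNA, given as 3 or more in the series text and as more than 3 in the article, and input is poly(A) RNA of the whole extract. The files of input Veh replicates 2 and 3 were identical over all 117135 transcripts, so they entered as a single library, and n was 2 in input Veh and 3 in polysome Rosi, polysome Veh and input Rosi.

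These mRNAs encode transcription factors, RNA-binding proteins and phosphatases whose induction is brief. Transcription of many of them is driven through serum response factor at CArG boxes and through CREB at cAMP response elements (CREs), and many of the mRNAs carry AU-rich elements in the 3′ UTR that shorten their life. Of the agents in the cocktail, 3-isobutyl-1-methylxanthine raises cAMP and dexamethasone acts through the glucocorticoid receptor, of which Per1 and Sgk1 are known targets. The number of ribosomes on an mRNA depends on how often translation starts and on the length of the coding region, so a ratio of polysome to input reads is a measure of loading relative to all other mRNAs of the same library.

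Promoters and 3′ UTRs of many members hold the elements named above, and short windows around them are shown for some of these genes. RefSeq promoters (GRCm38.p6, 250 bases before to 50 after the start of transcription) were matched for 31 of the 38 genes. Egr1 and Myc were not among them, so their promoters were not searched. A full CRE, TGACGTCA, lay in 4 of 31, against 2.03% of 27025 genes. A CArG box lay in 3 of 31, Egr2, Zfp36 and Dusp5, against 1.81% of genes. The CRE pentamer, TGACG or CGTCA, either of which also lies within a full CRE, was found in 18 of 31, against 23.0% of genes. An AP-1 site, TGACTCA or TGAGTCA, lay in 0 of 31, against 5.95% of genes. All motifs were searched on both strands, and a match is a description of the letters only.

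The windows below give a motif in capitals, 5′ to 3′ on the strand of the gene. The first 5 are CRE pentamers of genes whose levels differed between Veh replicates in both fractions. They were chosen among the 8 such genes described below because they hold the motif, since the Gadd45b promoter held none of these motifs and promoters of Egr3 and Klf10 were not analysed here, so they say nothing of a link between motif and level. The next are the full CREs, and the last are CArG boxes.
Fosb, chr7:19310089-19310117, minus strand: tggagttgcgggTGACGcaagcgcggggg
Junb, chr8:84978838-84978866, minus strand: gcttcctgacagTGACGcgagccgcctcc
Atf3, chr1:191183324-191183352, minus strand: ttaatagcattaCGTCAgcctgggattgg
Nr4a1, chr15:101266794-101266822, plus strand: cccctctccatgCGTCAcggagcgcttaa
Nr4a2, chr2:57124131-57124159, minus strand: gccggctgcacgCGTCAcggagcccggcc
Btg2, chr1:134079303-134079332, minus strand: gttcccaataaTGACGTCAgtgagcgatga
Errfi1, chr4:150855008-150855037, plus strand: gctgcgggcgtTGACGTCAcgttgtcgctc
Maff, chr15:79347480-79347509, plus strand: ggctggggcggTGACGTCActgcatgactg
Dusp1, chr17:26508597-26508626, minus strand: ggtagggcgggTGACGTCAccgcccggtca
Egr2, chr10:67537787-67537816, plus strand: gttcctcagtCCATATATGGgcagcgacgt
Zfp36, chr7:28379267-28379296, minus strand: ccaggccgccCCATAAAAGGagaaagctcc
Dusp5, chr19:53529053-53529082, plus strand: ggggaaatacCCATATTTGGccttatatgg

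AU-rich elements are built from the pentamer ATTTA. In the most abundant protein-coding transcript of GENCODE M21, found for 37 members, ATTTA lay in the 3′ UTR of 35 (94.6%), against 67.2% of 13422 genes tested. The longer TATTTAT lay in 23 (62.2%) against 28.7%, and TTATTTATT in 8 (21.6%) against 7.44%. Both Gadd45b and Gadd45g, which encode stress sensors related to Gadd45a, held no ATTTA. Windows of the 4 genes with the lowest and the 1 with the highest polysome over input ratio in Rosi cells, and of Fos, are given with ATTTA in capitals (GRCm38.p6, strand of the gene).
Per1, chr11:69109674-69109703, plus strand: agtcgcagggttggggctgcacttATTTAt
Fosb, chr7:19303337-19303366, minus strand: taatcccaaaccccacccccagctATTTAt
Jun, chr4:95049210-95049239, minus strand: gtgatcATTTAtaatcataggaaagATTTA
Zfp36, chr7:28376962-28376991, minus strand: gggccctttATTTAtgacgactttATTTAt
Gadd45a, chr6:67035148-67035177, minus strand: agttattttatgatgtgaaaggttATTTAt
Fos, chr12:85477091-85477120, plus strand: acgtttttattgtgttttcaATTTATTTAt

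The 11 libraries held 17.4 to 24.0 M estimated reads. The first principal component (50.2% of the variance) parted the fractions, with input libraries at 37.2 to 44.1 and polysome libraries at -21.4 to -32.3 apart from polysome Rosi replicate 3 (-42.5) and polysome Veh replicate 1 (-53.1). Summed adipocyte markers were at 1228 to 1494 CPM (counts scaled to a common library size) in polysome Rosi, 117 to 164 in polysome Veh, 619 to 691 in input Rosi and 67.2 to 71.8 in input Veh. Of the 5 markers, Fabp4 was the largest part of each sum. Lep was at 0 in every library but polysome Rosi replicate 2 (0.087 CPM). Summed progenitor and fibroblast markers were at 2535 to 3073, 2299.6 to 2871, 4928 to 6119 and 5086 to 6254 CPM in the same order of groups. Summed markers of macrophages, which also use immediate early genes, were at 13822 to 17724, 15332 to 20484, 10842 to 12610 and 15233 to 17386 CPM, and all 8 were below 0 in log2 Rosi over Veh in both fractions. The lymphocyte markers Cd3e and Cd3g and the erythroid Hbb-bs were at 0. In such bulk libraries, fewer cells of a type and less RNA per cell cannot be told apart.

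The 38 mRNAs made up 0.433 to 0.481% of the estimated reads in polysome Rosi, 0.411 to 0.521% in polysome Veh, 0.506 to 0.523% in input Rosi and 0.453 to 0.471% in input Veh. In TPM, which divides by transcript length, the list spanned a wide range of abundance. Gadd45g, a growth arrest gene, was highest in polysome Rosi (316 ± 41.3 TPM), polysome Veh (308 ± 83.2) and input Rosi (330 ± 15.7), and Junb, an AP-1 subunit, was highest in input Veh (285 ± 67.2 TPM, SD, n = 2). In input Veh the order then ran Gadd45g (267 ± 8.33 TPM), Rhob, which encodes an endosomal GTPase (262 ± 5.62), Ier3 (195 ± 21.2) and Errfi1, an inhibitor of the EGF receptor (186 ± 17.5). Junb, Gadd45g and Rhob lay within their spread of each other, as did Ier3 and Errfi1. The lowest were Egr3 (6.503 ± 3.01 TPM), Nr4a2 (1.15 ± 0.67) and Nr4a3 (0.42 ± 0.08), and the last 2 had only 15 to 93 reads in any library. Thus most members were well measured in every library, and the Nr4a2 and Nr4a3 values carry the largest counting error.

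**Figure D1:**
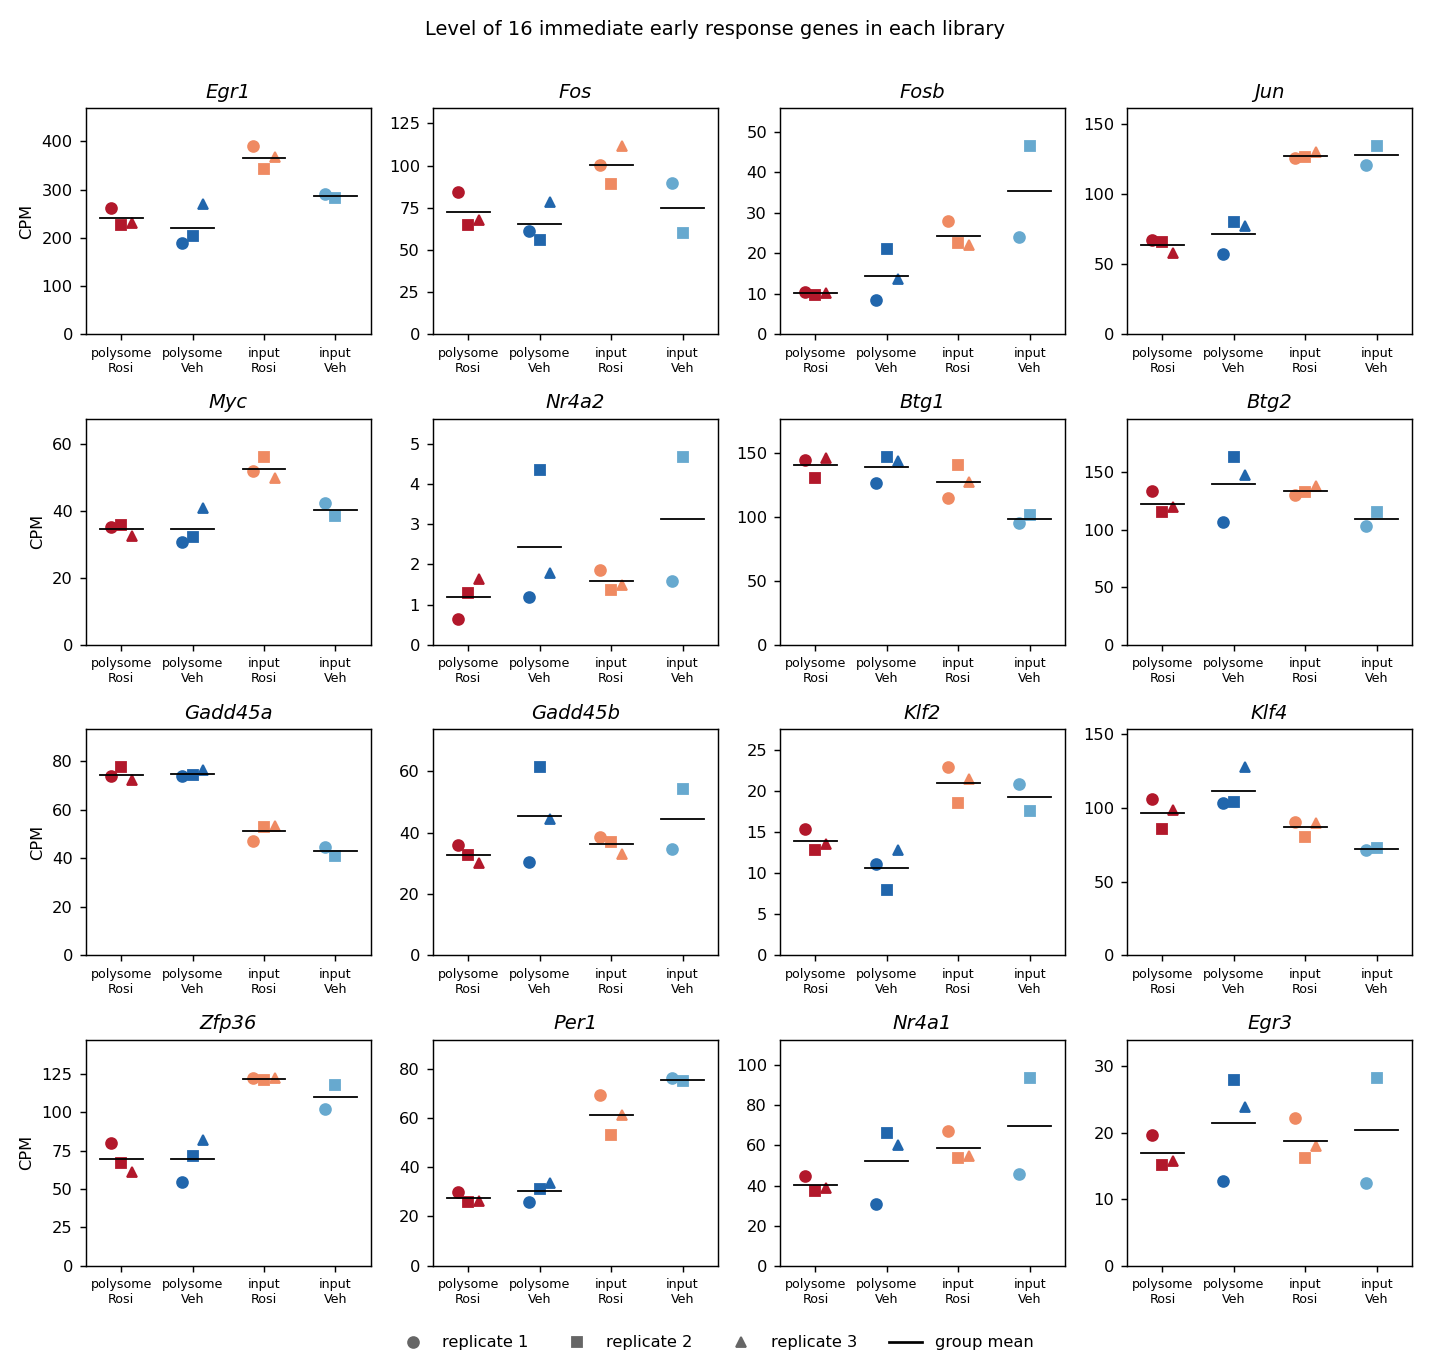
Level of 16 immediate early response genes in each of the 11 libraries in CPM on a linear axis from 0, by group (polysome Rosi, polysome Veh, input Rosi, input Veh), with 1 symbol shape per replicate number and a line at the group mean. Per1, Fosb and Jun sit lower in polysome than in input libraries and Gadd45a higher, while the square of replicate 2 stands above the other Veh libraries for Fosb, Nr4a1, Nr4a2 and Egr3.

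The first question was whether Rosi changed the level of these mRNAs in the whole extract. In input, 1 of 38 members was called higher in Rosi (edgeR, adjusted p under 0.05 with a log2 change beyond 0.2), against 1.13% of the 13603 genes tested, and 0 were called lower, against 0.206%. Without the adjustment, 15 members were higher at p under 0.05 (background 9.20%) and 3 lower (background 7.79%). With the input libraries scaled on their own, all Rosi libraries lay above both Veh libraries in 14 members (background 18.7%). In 1, Per1, all lay below (background 15.7%). In the CPM printed here, which are scaled over all groups, Fos and Ier2 of these 14 overlapped. Input Rosi replicate 2 and input Veh replicate 1 were at 89.04 and 89.44 CPM for Fos and at 143 and 146 for Ier2. The median log2 fold change was 0.15, against 0.01 over all genes tested, and 25 members lay above 0. The input libraries scaled on their own give values 0.07 higher on the log2 scale than the scaling of all groups in which CPM are printed here, and on that scale the medians were 0.08 for the members and -0.06 for all genes, with 23 members above 0. The count of calls moved with single libraries, and so did that over all genes in either direction. It was 12 members without input Rosi replicate 1 (11.7% of all genes called), 1 without input Rosi replicate 2 (0.825%), 0 without input Rosi replicate 3 (0.988%), 7 without input Veh replicate 1 (1.28%) and 0 without input Veh replicate 2 (0.470%).

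In the polysome fraction, which shares no library with input, 0 of 38 members were called in either direction (background 0.633% higher and 0.0223% lower of 13436 genes), and DESeq2 also called 0. At an unadjusted p under 0.05, edgeR gave 3 members (Klf2 higher, Gadd45b and Nr4a2 lower, background 4.73% in either direction), and DESeq2 gave 5. The median log2 fold change of Rosi over Veh was -0.11, against -0.01 over all genes, with 9 members above 0 and 29 below. In 1 member, Errfi1, all polysome Rosi libraries lay below all polysome Veh libraries (-0.13, background 4.96%), and in 0 members above (background 4.29%). Without polysome Veh replicate 1, 4 members were called lower, namely Fosb, Egr3, Nr4a1 and Gadd45b, in a fit that called 1.31% of all genes in either direction. The median was -0.19 without that library, -0.062 without polysome Veh replicate 2, -0.014 without polysome Veh replicate 3 and -0.060 without polysome Rosi replicate 3.

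**Figure D2:**
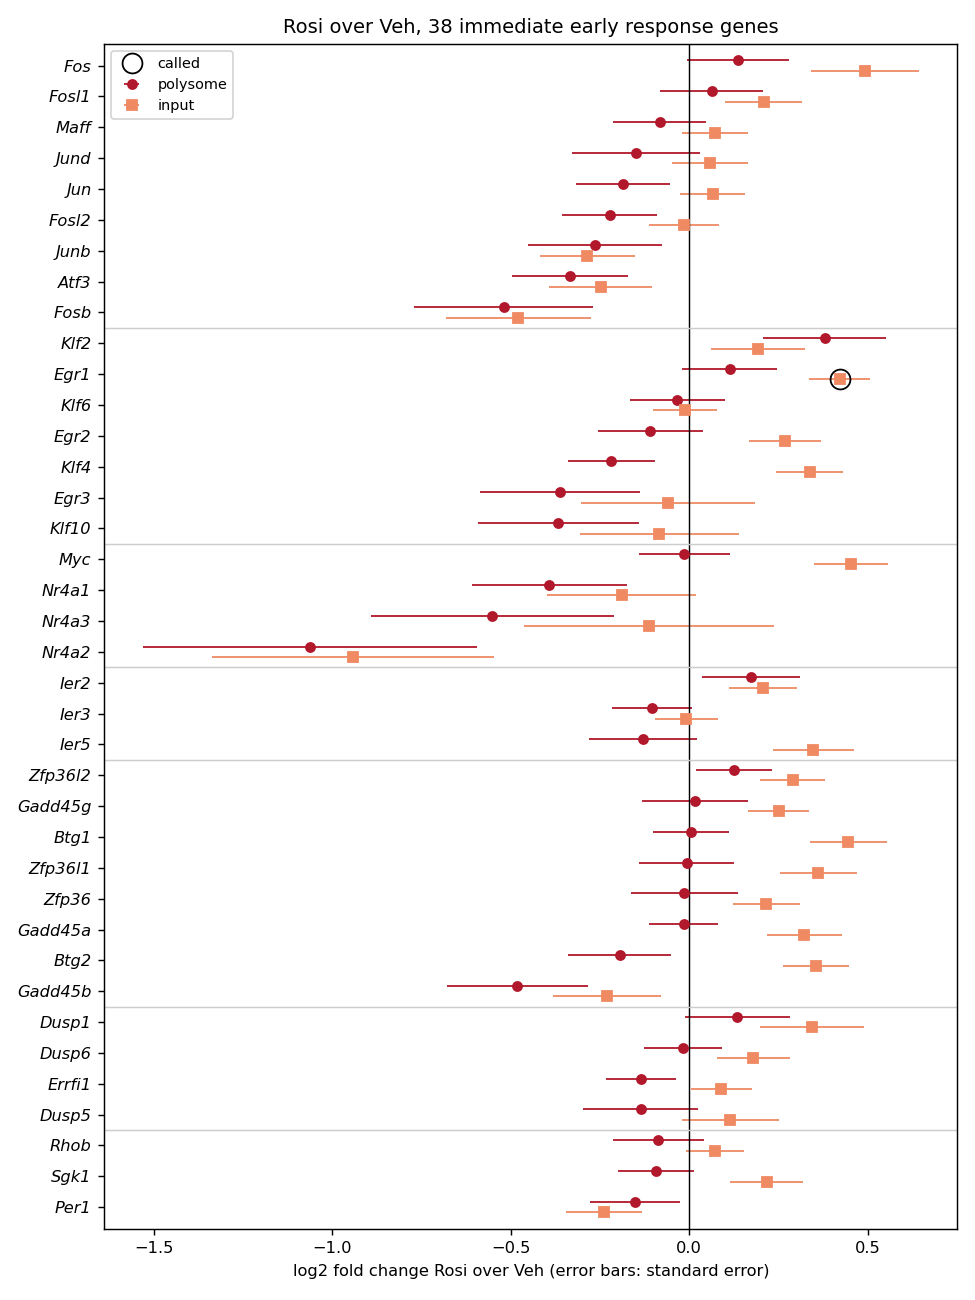
Log2 fold change of Rosi over Veh for the 38 genes in polysome (circles) and input (squares) libraries, with standard errors, grouped by role, and a ring around called values. Egr1 in input is the 1 called value, the decay and growth arrest genes lie to the right of 0 in input for 7 of 8, and the polysome values lie to the left of 0 for 29 of 38.

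The next question was how the members were loaded on ribosomes. In Rosi cells, 3 of 38 members were called lower in polysome than in input at a log2 fold change beyond 1 (background 4.86% of 14042 genes) and 0 higher (background 6.49%). At an adjusted p under 0.05 with any fold, 20 were lower (background 26.0%) and 3 higher (background 29.1%), and 24 lay without overlap below input (background 31.7%) and 3 above (background 33.7%). The median log2 ratio was -0.38, against 0.00 over all genes, with 32 of 38 below 0. In Veh cells, 2 members were called lower (background 6.68%) and 0 higher (background 2.99%). With any fold, 12 were lower (background 24.6%) and 5 higher (background 24.7%), with 13 below input without overlap (background 31.5%) and 5 above (background 32.5%), and the median was -0.19, against 0.02 over all genes. That median was -0.082 without polysome Veh replicate 1 and -0.079 without input Veh replicate 2.

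The Rosi and Veh ratios were then set against each other as the interaction of fraction and treatment, the measure of translation efficiency. It called 0 of 14042 genes in edgeR, none of them a member, and DESeq2 called 0 members. At an unadjusted p under 0.05, 4 members were lower (Klf4, Btg2, Btg1 and Myc, background 2.39%) and 0 higher (background 4.46%). The members' median was -0.15, against 0.06 over all genes, and 32 of 38 lay below 0. The median was -0.28 without polysome Veh replicate 1, -0.080 without polysome Veh replicate 2, -0.081 without polysome Veh replicate 3, -0.049 without input Veh replicate 1 and -0.24 without input Veh replicate 2. The difference between the 20 and 12 lower members of Rosi and Veh was therefore not past the threshold for any single gene. All these comparisons reuse the same libraries, since a polysome Rosi library enters Rosi over Veh, polysome over input and the interaction.

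**Figure D3:**
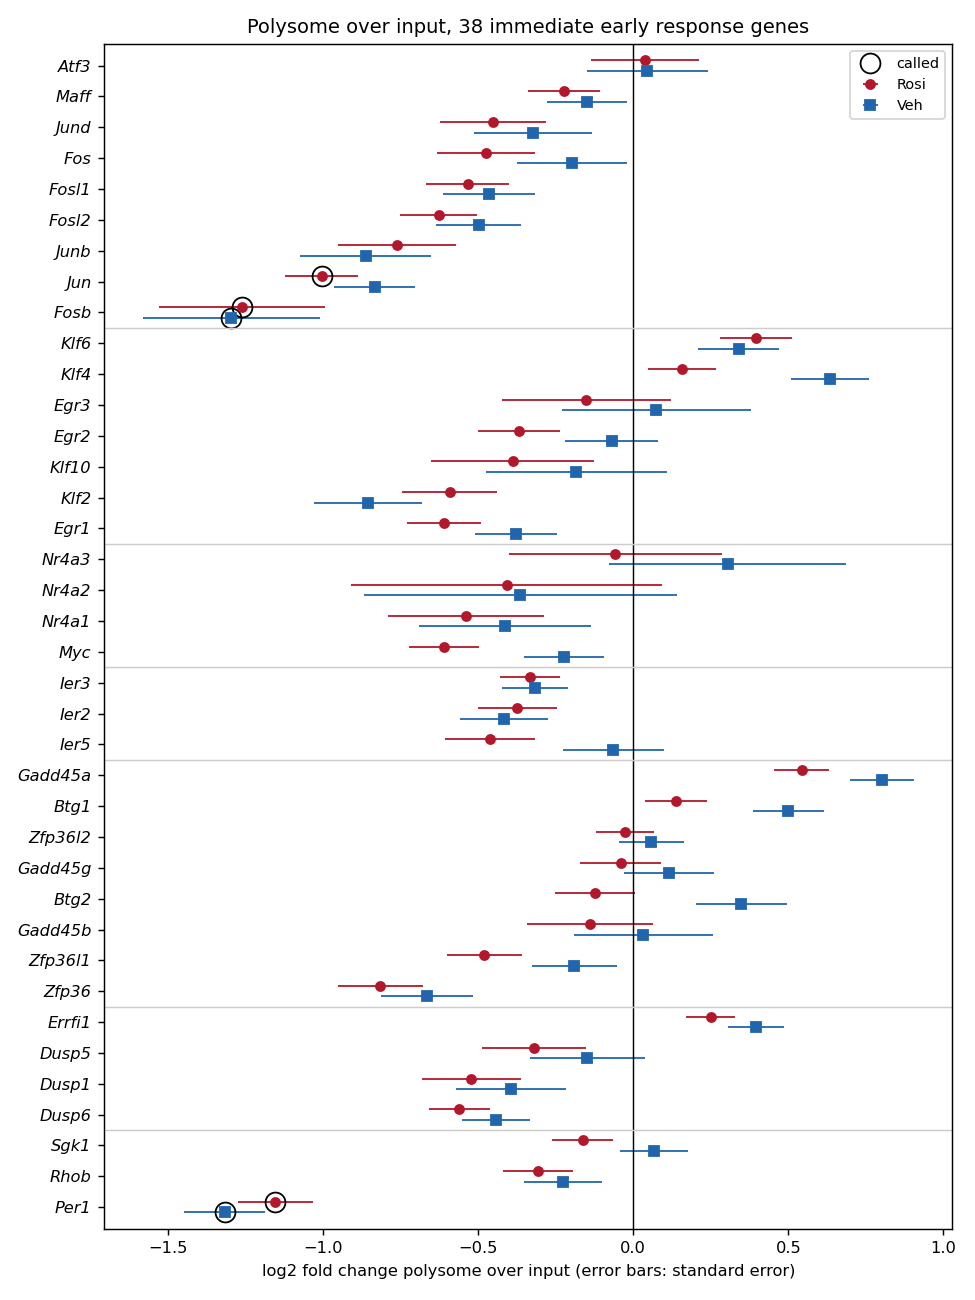
Log2 fold change of polysome over input for the 38 genes in Rosi (circles) and Veh (squares) cells, with standard errors, grouped by role, and a ring around called values. Per1 and Fosb are ringed in both treatments and Jun in Rosi, the AP-1 genes lie left of 0 except Atf3, and Gadd45a lies farthest to the right in both.

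The AP-1 subunits, which pair through leucine zippers to bind DNA, had the lowest median of polysome over input among the roles. Of 9, 7 were lower in Rosi at an adjusted p under 0.05 (background 26.0%) and 5 in Veh (background 24.6%), with medians of -0.53 in Rosi and -0.47 in Veh. Jun, the main partner of Fos, had 67.05, 65.8 and 57.7 CPM in polysome Rosi, 57.6, 80.2 and 77.2 in polysome Veh, 126, 126 and 130.02 in input Rosi and 121 and 134 in input Veh. Polysome and input did not overlap in either treatment. Its log2 ratio was -1.01 ± 0.12 in Rosi (SE, adjusted p = 5.5e-06) and -0.83 ± 0.13 in Veh (adjusted p = 9.6e-05), so it passed the fold threshold in Rosi and not in Veh, and the interaction did not pass. In Rosi it lay between -0.94 and -1.05 when single libraries were left out, and it came under the threshold without polysome Rosi replicate 3 or input Rosi replicate 3.

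Fosb, a Fos relative induced strongly by serum and stress, had 10.4, 9.72 and 10.3 CPM in polysome Rosi and 28.1, 22.6 and 22.1 in input Rosi. In Veh it had 8.33, 21.03 and 13.7 CPM in polysome and 24.0 and 46.5 in input. The replicates of Rosi were close together, whereas those of Veh were far apart in polysome and input alike, with replicate 2 highest in both. Fosb was lower in polysome than in input by log2 ratios of -1.26 ± 0.27 in Rosi (adjusted p = 0.00093) and -1.30 ± 0.29 in Veh (adjusted p = 0.0016). The Veh value was -0.74 without input Veh replicate 2, which is under the fold threshold of 1. It was -1.42 without Veh replicate 1 and -1.12 without Veh replicate 2 of both fractions. Rosi over Veh was -0.52 ± 0.25 in polysome and -0.48 ± 0.20 in input (adjusted p = 0.25), and neither passed. Without polysome Veh replicate 1 the polysome value was -0.79 (adjusted p = 0.0499), and without polysome Veh replicate 2 it was -0.12. Without input Veh replicate 1 the input value was -0.87, and without input Veh replicate 2 it was 0.07.

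Fos, the founding member of the family, had 84.3, 64.5 and 67.7 CPM in polysome Rosi, 61.4, 55.9 and 78.3 in polysome Veh, 100.3, 89.0 and 112 in input Rosi and 89.4 and 60.2 in input Veh. It had the highest log2 fold change of Rosi over Veh among the members in input, 0.49 ± 0.15, which did not pass (adjusted p = 0.13). The Veh pair was far apart, and the value was 0.81 without input Veh replicate 1 and 0.23 without input Veh replicate 2, each with 1 Veh library left. Junb, which often restrains Jun, had 184, 179 and 161 CPM in polysome Rosi, 139, 276 and 210.4 in polysome Veh, 321, 285 and 284 in input Rosi and 301 and 456 in input Veh. It was lower in polysome in both treatments (-0.76 ± 0.19 in Rosi, adjusted p = 0.0034, and -0.86 ± 0.21 in Veh, adjusted p = 0.0032). Fosl1 and Fosl2, Fos relatives that rise later, were lower by -0.53 and -0.63 in Rosi and by -0.47 and -0.50 in Veh, all at an adjusted p under 0.05. Jund, the AP-1 subunit present in resting cells, was lower in Rosi (-0.45, adjusted p = 0.035) and had -0.32 in Veh (adjusted p = 0.17). Atf3, a stress-induced bZIP repressor, was the 1 AP-1 member above 0 in both, at 0.04 and 0.05, and Maff, a small Maf protein, had -0.22 and -0.15 with neither past the test.

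Among the zinc finger factors, Egr1, which is induced through CArG boxes, was the 1 member called higher with Rosi. It had 390.4, 342 and 367 CPM in input Rosi and 289.9 and 283 in input Veh, and all Rosi libraries lay above both Veh libraries. The log2 fold change was 0.42 ± 0.09 (adjusted p = 0.032). It was 0.41 without input Rosi replicate 3 (adjusted p = 0.11), 0.44 without input Veh replicate 1 and 0.40 without input Veh replicate 2. The call was lost in 7 of 16 alternatives. These included the fits without input Rosi replicate 3 and without input Veh replicate 2, the latter with 1 Veh library left. They also included 1 fit of all 4 groups (0.35, adjusted p = 0.26), the replicate number as a block (0.41, adjusted p = 0.22) and limma on TPM (0.48, adjusted p = 0.11). In polysome it had 262, 227 and 231 CPM in Rosi and 188, 203 and 270.1 in Veh, which overlapped (0.11). Egr1 was lower in polysome than in input in both treatments (-0.61 ± 0.12 in Rosi, adjusted p = 0.00049, and -0.38 ± 0.13 in Veh, adjusted p = 0.027). The summed macrophage markers were lower in input Rosi, as given above, and their part in this and the other Rosi over Veh results was not tested.

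Klf4, a Krüppel-like factor used early in adipogenesis and in reprogramming, leaned towards polysomes. It had 106, 85.6 and 98.5 CPM in polysome Rosi, 103, 104 and 128 in polysome Veh, 90.3, 80.4 and 89.99 in input Rosi and 71.3 and 72.9 in input Veh. Polysome was higher than input in Veh (0.63 ± 0.13, adjusted p = 0.00069) and had 0.16 ± 0.11 in Rosi (adjusted p = 0.24). The interaction was -0.48 ± 0.17, the lowest of all members, and did not pass (adjusted p = 0.72). In input, Rosi over Veh was 0.34 ± 0.09 with no overlap (adjusted p = 0.10).

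Klf2, a factor that restrains adipogenesis, had 15.4, 12.8 and 13.6 CPM in polysome Rosi, 11.1, 7.94 and 12.9 in polysome Veh, 23.0, 18.6 and 21.5 in input Rosi and 20.9 and 17.6 in input Veh. It had the highest Rosi over Veh value in polysome, 0.38 ± 0.17, and the highest interaction, 0.26 ± 0.23, and neither passed the adjustment. It was lower in polysome by -0.59 in Rosi (adjusted p = 0.0042) and -0.86 in Veh (adjusted p = 0.00088). Klf6, a widely expressed relative, was higher in polysome in both (0.40 in Rosi and 0.34 in Veh, adjusted p = 0.0094 and 0.042). Egr2, which also drives early adipogenesis, was lower in polysome in Rosi (-0.37, adjusted p = 0.028), with -0.07 in Veh. Egr3 and Klf10 passed in none of the comparisons, and their Veh replicates are described below.

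Of the Nr4a receptors and Myc, all 4 lay below 0 in Rosi over Veh in polysome (median -0.47), and none passed. Nr4a2, a receptor that needs no known ligand, had 0.64, 1.30 and 1.63 CPM in polysome Rosi, 1.197, 4.35 and 1.78 in polysome Veh, 1.87, 1.36 and 1.49 in input Rosi and 1.59 and 4.69 in input Veh. Replicate 2 of Veh was above all other libraries in both fractions. In TPM, into which the split among transcripts enters, input Rosi had 4.12, 0.66 and 0.62 and input Veh 0.68 and 1.63. The Rosi over Veh values were the lowest of all members, -1.06 ± 0.47 in polysome (adjusted p = 1) and -0.94 ± 0.39 in input (adjusted p = 0.25). They were -0.33 without polysome Veh replicate 2 and 0.04 without input Veh replicate 2, and -1.50 without input Veh replicate 1. Nr4a1, the best known of the family in cAMP responses, had 44.7, 37.3 and 38.8 CPM in polysome Rosi, 30.8, 66.2 and 60.3 in polysome Veh, 66.99, 53.9 and 54.8 in input Rosi and 45.8 and 93.8 in input Veh. Its Veh libraries lay on both sides of the Rosi libraries. The Rosi over Veh value in polysome was -0.39 ± 0.22, and -0.66 (adjusted p = 0.0096) without polysome Veh replicate 1.

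Myc, the growth factor-induced regulator of ribosome genes, had 35.1, 35.9 and 32.4 CPM in polysome Rosi, 30.8, 32.1 and 40.9 in polysome Veh, 52.0, 56.3 and 49.8 in input Rosi and 42.3 and 38.4 in input Veh. In input, Rosi lay above Veh without overlap at 0.45 ± 0.10, which missed the threshold (adjusted p = 0.054), and the polysome groups overlapped (-0.01). Myc was lower in polysome than in input in Rosi (-0.61 ± 0.11, adjusted p = 0.00033), with -0.22 ± 0.13 in Veh (adjusted p = 0.16), and the interaction of -0.39 ± 0.17 did not pass (adjusted p = 0.72).

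The 3 Ier genes, small proteins named for this response, were all lower in polysome in Rosi, with Ier5 at -0.46, Ier2 at -0.37 and Ier3 at -0.33. In Veh, Ier2 (-0.42) and Ier3 (-0.32) were lower and Ier5 had -0.06 (adjusted p = 0.77). In input scaled on its own, Ier2 and Ier5 lay above Veh in all Rosi libraries, at 0.21 and 0.35, and did not pass the adjustment. In printed CPM the Ier2 groups overlapped.

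The decay and growth arrest genes had the highest medians of Rosi over Veh in input (0.31, 7 of 8 above 0, none past the adjustment) and of polysome over input in Veh (0.09). In input, 7 of 8 lay above Veh without overlap, all but Gadd45b (background 18.7%). Btg1, an antiproliferative protein that binds deadenylases, had 145, 131 and 146 CPM in polysome Rosi, 126, 147 and 143 in polysome Veh, 115, 140.5 and 127 in input Rosi and 95.1 and 101 in input Veh. Its relative Btg2, which carries the full CRE shown above, had 133, 115 and 119 CPM in polysome Rosi, 107, 163 and 147 in polysome Veh, 130.1, 132 and 138 in input Rosi and 103 and 116 in input Veh. Rosi over Veh in input was 0.45 ± 0.11 for Btg1 (adjusted p = 0.068) and 0.36 ± 0.09 for Btg2 (adjusted p = 0.091). In polysome the values were 0.01 and -0.19 with overlap. Btg1 was higher in polysome than in input in Veh (0.50 ± 0.11, adjusted p = 0.0020), while Rosi had 0.14 ± 0.10 (adjusted p = 0.26). The interactions of -0.36 ± 0.15 for Btg1 and -0.47 ± 0.19 for Btg2 did not pass (adjusted p = 0.72 each).

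Gadd45a, a DNA damage-inducible growth arrest protein, was the member most enriched in polysomes. It had 73.7, 77.5 and 72.1 CPM in polysome Rosi and 47.2, 52.9 and 53.1 in input Rosi, and 73.9, 74.2 and 76.1 in polysome Veh and 44.7 and 41.0 in input Veh. All polysome libraries lay above all input libraries. The log2 ratio was 0.54 ± 0.09 in Rosi (adjusted p = 0.00011) and 0.80 ± 0.10 in Veh (adjusted p = 1.7e-05), under the fold threshold in both. Gadd45b, a relative induced by TGF-β and inflammation, had 35.8, 32.8 and 30.0 CPM in polysome Rosi, 30.6, 61.4 and 44.6 in polysome Veh, 38.6, 37.0 and 33.1 in input Rosi and 34.6 and 54.3 in input Veh. It had the smallest p of the members for Rosi over Veh in polysome (-0.48 ± 0.20, adjusted p = 0.97). The value was -0.70 without polysome Veh replicate 1 (adjusted p = 0.033) and -0.19 without polysome Veh replicate 2. The ratio of polysome to input was -0.14 in Rosi and 0.03 in Veh.

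Zfp36 (tristetraprolin) binds AU-rich elements and carries a pair of them in the window above. It had 79.8, 66.6 and 61.2 CPM in polysome Rosi, 54.4, 71.5 and 82.1 in polysome Veh, 122, 121 and 122 in input Rosi and 102 and 118 in input Veh. It was lower in polysome than in input in both treatments, by -0.82 ± 0.14 in Rosi (adjusted p = 0.00012) and -0.67 ± 0.15 in Veh (adjusted p = 0.0018). Of its relatives, Zfp36l1 was lower in Rosi (-0.48, adjusted p = 0.0034) and had -0.19 in Veh, and Zfp36l2 had -0.03 and 0.06.

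The feedback inhibitors differed among themselves. Dusp6, a phosphatase of ERK, was lower in polysome in both treatments (-0.56 in Rosi, adjusted p = 0.00018, and -0.44 in Veh, adjusted p = 0.0033), and Dusp1, a nuclear phosphatase of p38 and JNK, in Rosi (-0.52, adjusted p = 0.012, with -0.39 and adjusted p = 0.078 in Veh). Dusp5, a nuclear phosphatase of ERK, had -0.32 and -0.15 with neither past the test. Errfi1 was higher in polysome in both (0.25 in Rosi, adjusted p = 0.014, and 0.40 in Veh, adjusted p = 0.0019).

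Per1, a clock repressor that is also induced by glucocorticoids and cAMP, showed the lowest p of all members for loading. It had 30.1, 25.9 and 26.3 CPM in polysome Rosi and 69.2, 53.1 and 61.2 in input Rosi, and 26.0, 31.3 and 33.7 in polysome Veh and 76.3 and 74.8 in input Veh. No polysome library reached any input library. The log2 ratio was -1.15 ± 0.12 in Rosi (adjusted p = 2.1e-06) and -1.32 ± 0.13 in Veh (adjusted p = 2.2e-06). In input all Rosi libraries lay below Veh, at -0.24 (adjusted p = 0.28). Rhob was lower in polysome in Rosi (-0.31, adjusted p = 0.029), with -0.23 in Veh, and Sgk1, a glucocorticoid- and insulin-responsive kinase, had -0.16 and 0.07 with neither past the test.

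The Veh replicates differed from each other for a group of members that was noticed in the values, so the following is a description without a test. Between replicates 2 and 1, the log2 ratio of CPM was above 0.5 in polysome and in input alike for 8 of 38 members (21.1%), against 1.87% of 14042 genes. The pairs of values in polysome and input were 1.78 and 1.50 for Nr4a2, 1.33 and 0.95 for Fosb, 1.15 and 1.15 for Klf10, 1.12 and 1.18 for Egr3, 1.10 and 1.03 for Nr4a1, 1.00 and 0.65 for Gadd45b, 0.99 and 0.60 for Junb, and 0.70 and 0.66 for Atf3. Klf10, a TGF-β-induced repressor, had 26.6, 59.2 and 34.1 CPM in polysome Veh and 28.1 and 62.6 in input Veh, while its 6 Rosi libraries of both fractions spanned 29.7 to 43.5. Egr3 had 12.8, 27.8 and 23.8 CPM in polysome Veh and 12.4 and 28.3 in input Veh, and Atf3 had 113, 182 and 128 and then 106 and 167. Over the 38 members the ratios of the fractions correlated at r = 0.92 (Spearman rho 0.93), against 0.11 (rho 0.17) over all 14042 genes, where all points of a fraction share the same pair of libraries and their depth. A high r was not particular to the members. It was 0.70 (rho 0.65) over 54 other early response genes. The 0.77 (rho 0.71) over 7 cAMP targets is not separate evidence, since they include Nr4a1, a member with this pattern. Sik1 and Areg among them also belong to the 54 other early response genes. Over 24 upstream kinases and factors r was -0.11 (rho 0.11), and over 10 glucocorticoid targets -0.54 (rho -0.02). The labels do not say that replicates of the same number in polysome and input came from the same cells.

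At the other end, Fos (-0.14 in polysome and -0.57 in input), Dusp1 (-0.30 and -0.56) and Klf2 (-0.48 and -0.25) were lower in replicate 2 in both fractions. The replicates thus differed in opposite directions within the list. The spread of members within groups, as the median SD of log2 CPM, was 0.12 in polysome Rosi, 0.29 in polysome Veh, 0.10 in input Rosi and 0.16 in input Veh, against 0.13, 0.21, 0.14 and 0.12 over all genes. Polysome Veh replicate 2 held the highest value of the 6 polysome libraries for 14 of 38 members and replicate 3 for 15, while polysome Veh replicate 1 held the lowest for 22. The same counts were not taken over all genes, so they cannot be read as particular to the members. Because input Veh rests on 2 libraries, members of either kind moved with the library left out, as given above for Fos, Fosb and Nr4a2.

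**Figure D4:**
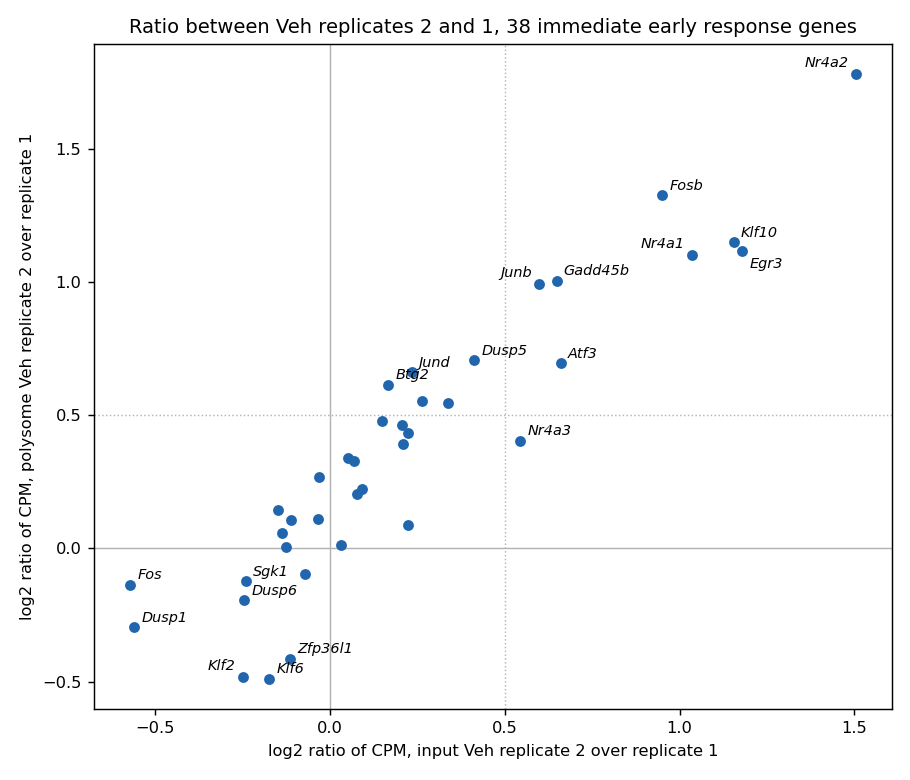
Log2 ratio of CPM between Veh replicates 2 and 1 in input (horizontal axis) and polysome (vertical axis) for each of the 38 genes, with dotted lines at 0.5. Nr4a2, Fosb, Klf10, Egr3, Nr4a1, Gadd45b, Junb and Atf3 lie above 0.5 on both axes, and Fos and Dusp1 lie farthest to the left.

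Other lists were read in the same way. Of 54 other early response genes, 4 lay above 0.5 in both fractions between Veh replicates 2 and 1 (Hes1, Id1, Id3 and Arc, background 1.87%). Of 24 upstream kinases and factors 0 did, and of 10 glucocorticoid targets 0. For Rosi over Veh in input, 3 of 53 tested other early response genes were called higher (background 1.13%) and 1 lower (background 0.206%). The ERK inhibitor Spry4 was at 0.97 ± 0.17 (adjusted p = 0.011), its relative Spred2 at 0.51 (adjusted p = 0.027), the adipogenic factor Cebpb at 0.46 (adjusted p = 0.043) and the dioxin-inducible Tiparp at -0.53 (adjusted p = 0.031). In polysome 0 of these were called (background 0.633% higher and 0.0223% lower). For polysome over input in Rosi, 2 of 54 were called higher (background 6.49%), the cytokine Il6 (1.29 ± 0.14) and the EGF family ligand Ereg (1.14 ± 0.11). At an adjusted p under 0.05 with any fold, 10 were higher (background 29.1%) and 19 lower (background 26.0%). In Veh 0 were called (background 2.99% higher and 6.68% lower). With any fold, 11 were higher in Veh (background 24.7%) and 15 lower (background 24.6%). The 24 upstream kinases and factors relay growth factor and cAMP signals. Of these, 3 were called higher in polysome in Rosi (background 6.49%) and 0 in Veh (background 2.99%). At an adjusted p under 0.05 with any fold, 9 were higher and 5 lower in Rosi (background 29.1% and 26.0%). In Veh 9 were higher and 5 lower (background 24.7% and 24.6%). The list's medians of -0.11 in Rosi and 0.00 in Veh lay above those of the members.

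The members had shorter coding regions and fewer exons than the genes around them in the fit. The median coding length was 1032 bases in 37 members, against 1341 in 13422 genes tested, with a median of 4 exons against 9, and 5 members (13.5%) had a single exon, against 2.59%. The median 3′ UTR was 1188 bases, against 999.5. Members with TATTTAT in the 3′ UTR (n = 23) had a median polysome over input of -0.41 in Rosi and -0.20 in Veh, and those without (n = 14) had -0.34 and -0.11. Across the 37 members the Spearman correlation of the ratio with coding length was -0.22 in Rosi and -0.15 in Veh, and with 3′ UTR length 0.23 and 0.29. With the number of ATTTA in the 3′ UTR it was 0.26 and 0.27, the other way from the TATTTAT medians. All are a description over genes of shared libraries.

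For 25 members, 1 transcript held at least 90% of the gene's estimated counts in every group. The split among transcripts is an estimate of Salmon and varied between replicates for some others. Fosb-201, which encodes the full-length protein (1014 coding bases), held 76.1 to 96.1% in polysome and 84.0 to 93.5% in input. Fosb-207, with 603 coding bases, held 2.48, 5.85 and 11.7% in polysome Rosi, 23.9, 10.7 and 2.07% in polysome Veh, 4.34, 2.64 and 8.21% in input Rosi and 6.16 and 5.92% in input Veh, and the polysome Veh libraries alone spanned most of that range. Egr3-202, a retained-intron transcript, held 71.8% in polysome Veh replicate 1 and 65.2% in input Veh replicate 1, and 22.3 to 42.3% in all other libraries. Klf10-202 held 0 to 64.8%, with 0% in all input Rosi libraries and 64.8% in polysome Veh replicate 1.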

How the data were processed

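Poly(A) RNA of polysome and input fractions was sequenced in 12 libraries. The authors quantified transcripts with Salmon on mm10 and deposited estimated counts and TPM for each library. The submitters' processing notes also name bcl2fastq 2.17, FastQC and DESeq2. The strand setting was not given in the sources used here. Titles with the tissue name alone were taken as polysome libraries.

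Estimated counts were summed to GENCODE M21 genes and rounded. Of 117135 transcripts 1162 had no match, with 0.381 to 0.464% of reads. After filterByExpr and TMM scaling, edgeR 4.0.16 in R 4.3.3 gave two-sided quasi-likelihood F tests, adjusted by Benjamini-Hochberg over all genes tested. Rosi was compared with Veh within a fraction, and polysome over input and the interaction were fitted over all groups. Calls needed an adjusted p under 0.05 with a log2 change beyond 0.2 (Rosi over Veh) or beyond 1 (all others). Each SE is the size of the log2 change divided by the root of F. CPM are on the library sizes of the fit of all groups. Overlap between Rosi and Veh was judged on those of each fraction's own fit.

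Members and lists were chosen with earlier results of these data known. Values in every library are given for called members, the 4 of smallest p and the extremes of each comparison, and for Nr4a1, Egr3, Klf10, Junb and Atf3, chosen after their values were seen. Nothing in the labels says that replicates came from separate animals, so p-values measure the spread between libraries. Alternatives included DESeq2 1.42.0, limma 3.58.1, other filters and scalings, and each library left out. The fits were also run on simulated counts with known changes. The simulated spread followed the trend of spread with level, not the spread of each gene. A true log2 change of 0.5 reached an adjusted p under 0.05 for 45.5% of changed genes in Rosi over Veh in input and 31.3% in polysome. For polysome over input it was 26.8% in Veh and 42.4% in Rosi, and for the interaction 8%. At a true change of 1 the shares were 84.4%, 78.8%, 79.8%, 83.8% and 54%. These shares do not apply the fold threshold that calls also needed. A gene without a call may thus still have changed.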

Additional observations from a re-analysis of the deposited data

How the results depend on the processing

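The count of members called for Rosi over Veh in input (1) depended on the processing, as did the share of all genes called, given in parentheses. It was 4 with DESeq2 (2.94%), 11 with no filter on low counts (4.73%), 2 with at least 10 counts in every library of a group (1.71%), 8 with all libraries as deposited (7.85%), and 0 with limma on log2(TPM + 1) (0.460%), with 1 fit of all 4 groups (0.548%) and with an absolute log2 fold change over 1 (0.529%). Leaving out 1 input Rosi library gave 0 to 12 calls, and leaving out 1 input library of either group moved Nr4a2 between -1.50 and 0.043. In polysome (0 called) leaving out 1 library gave 0 to 4 calls, and leaving out polysome Veh replicate 1 and polysome Rosi replicate 3 together gave 1 (Nr4a1, 0.788% of all genes). For polysome over input in Veh (2 called) the count was 1 without that pair and 17 with any fold. Single libraries mattered there too, since Fosb was at -0.74, under the fold threshold, without input Veh replicate 2. In Rosi (3 called) it was 2 to 3 over single libraries and 23 with any fold. The fits without Veh replicate 1 or 2 of both fractions, chosen after the data were seen, left 1 input Veh library, so only their Fosb values are given above. The interaction called 0 members under every alternative run. Nr4a2 changed sign for Rosi over Veh in input, to 0.043 without input Veh replicate 2 and 0.19 with limma on TPM, the latter not past the test (adjusted p = 0.88). The cause was not tested. The median of the members kept its sign under all alternatives in all comparisons, but not its size, at 0.079 to 0.23 for Rosi over Veh in input, -0.19 to -0.014 in polysome, -0.43 to -0.34 for polysome over input in Rosi, -0.28 to -0.036 in Veh and -0.29 to -0.049 for the interaction. Depth limits Nr4a2 and Nr4a3, which had 15 to 93 reads in a library.

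The labels number the replicates in every group, but same-numbered libraries did not deviate together throughout, with correlations over 11765 genes of 0.13 and 0.20 between polysome and input in Veh, -0.14 to 0.01 in Rosi, and -0.43 to 0.07 between Rosi and Veh. With the replicate number as a block, the count was 0 for Rosi over Veh in input and 0 in polysome, 3 for polysome over input in Rosi, 3 in Veh (Klf2 at -1.03 as well as Per1 and Fosb) and 0 for the interaction, so among the members it ended the call of Egr1 (0.41, adjusted p = 0.22) and added Klf2.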
